A study of Mus musculus with 2 samples.

Results

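Calcineurin, NFAT and CaMKII form the calcium-calmodulin signalling branch that links muscle activity to gene expression, and 10 of its genes were read in total RNA of the gastrocnemius, the large muscle of the calf. The 10 members were chosen by gene symbol: the calcineurin catalytic subunits Ppp3ca and Ppp3cb, the calcineurin regulator Rcan1, the transcription factors Nfatc1, Nfatc2 and Nfatc3, and the kinase genes Camk2a, Camk2b, Camk2d and Camk2g. All 10 were found among the 55536 genes of the tables. The group was gastrocnemius of adult female mice aged 8 to 10 months from a 5xFAD/CAST cross, with 300 ng of RNA and a spike-in mixture in each of 2 libraries. 5xFAD is a transgenic line with mutated human transgenes, APP among them, under the mouse Thy1 promoter, which is mainly active in neurons, and CAST is a wild-derived strain. The labels do not say which transgenes the sampled mice carried. They number the samples as biological replicates but give a shared donor identifier, so the spread between libraries may be technical. No control tissue or genotype belongs to the group, so the data give levels, forms and the spread between library 1 and library 2.

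When calcium enters a fibre it binds calmodulin, and calmodulin with calcium switches on both calcineurin and CaMKII. Calcineurin, a phosphatase of a catalytic A and a regulatory B subunit, removes phosphate from NFAT proteins, which then enter the nucleus and, in skeletal muscle, act on slow-fibre genes. CaMKII is a multi-subunit kinase whose genes differ mainly in the variable linker between the kinase and the assembly domain, and it acts on calcium release and, through class II histone deacetylases, on Mef2.

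Levels are TPM, a relative abundance corrected for transcript length, so different genes of 1 library can be compared. A pair of deposited estimates exists, called the first and the second quantifier, and values are those of the first unless the second is named. Each mean stands with its SD (n = 2 libraries). All 10 members reached at least 1 TPM in both libraries, against 19.2% of all genes and 44.5% of nuclear protein-coding genes. Camk2a was the highest at 132 and 173 TPM in libraries 1 and 2 (152 ± 29.4). Camk2g followed at 72.9 and 89.4 TPM (81.2 ± 11.7). The calcineurin subunits were level with it, Ppp3ca at 71.1 and 87.1 TPM (79.1 ± 11.3) and Ppp3cb at 71.4 and 85.0 TPM (78.2 ± 9.63). Camk2b stood below these at 54.5 and 67.6 TPM (61.0 ± 9.23). Rcan1 and Camk2d came next, and the NFAT genes were the lowest, with Nfatc2 at 3.90 and 5.45 TPM (4.68 ± 1.10). By level, Camk2a ranked 333 and Nfatc2 6501 among 22015 nuclear protein-coding genes. The values of Camk2g, Ppp3ca and Ppp3cb overlapped, as did those of Rcan1 and Camk2d, and every other pair of neighbours in this order was separate in both libraries. The same pairs overlapped by the second quantifier. In bulk tissue, fewer cells of a type and less RNA per cell cannot be told apart.

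**Figure D1:**
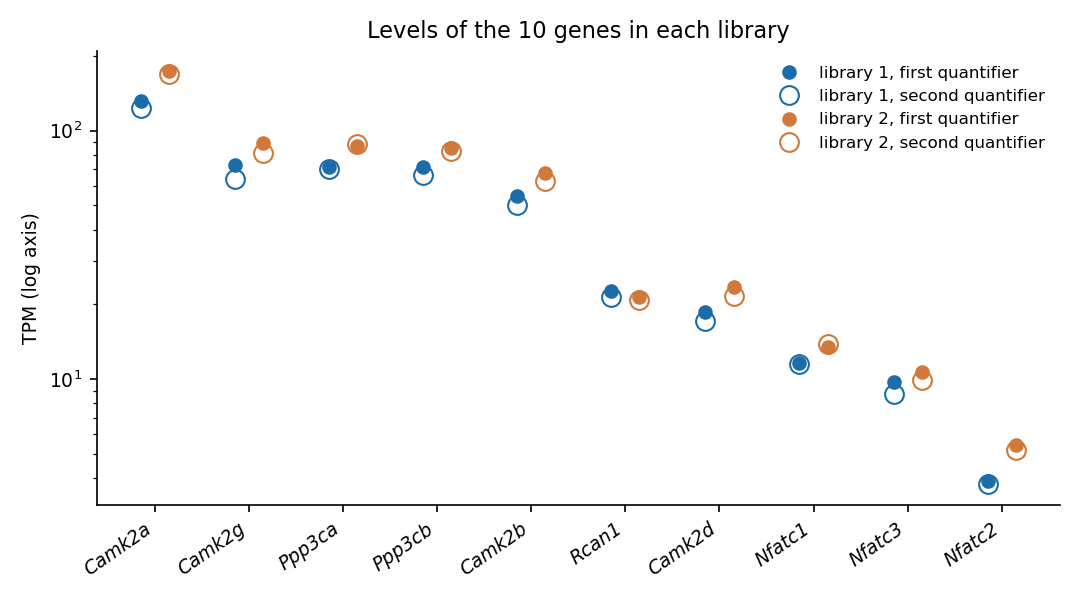
TPM (log axis) of each of the 10 genes in libraries 1 and 2, with filled points for the first quantifier and open circles for the second. Camk2a sits highest at 132 and 173 TPM, Nfatc2 lowest at 3.90 and 5.45 TPM, and open and filled points lie close together.

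The tissue label was borne out by its fibre markers, with Acta1, Ckm, Ttn and Myh4 together at 43820 and 50462 TPM. The defining neuron markers were near 0: Rbfox3, Snap25, Syt1 and Gap43 summed to 0.32 and 0.19 TPM. T lymphocyte markers summed to 0 and 0.13 TPM, and macrophage markers to 19.1 and 17.9 TPM. Endothelial markers summed to 26.5 and 28.1 TPM. The libraries held 35594069 and 34541650 expected counts, and each member held at least 588 counts in each library.

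The calcineurin catalytic subunits were present at similar levels. Ppp3ca encodes the alpha and Ppp3cb the beta form of the phosphatase. They held 49.9 and 50.6% (Ppp3ca) and 50.1 and 49.4% (Ppp3cb) of their joint TPM, which was 142 and 172. Their order differed between the libraries, and the log2 ratio of Ppp3ca over Ppp3cb was 0.015 ± 0.029. The second quantifier placed Ppp3ca slightly higher in both, at log2 ratios of 0.078 and 0.083. Of the calcineurin subunits outside the members, Ppp3r1, the regulatory B subunit of somatic tissues, stood at 46.2 and 55.9 TPM. Ppp3cc, the gamma catalytic subunit known mainly from testis, stood at 6.92 and 7.0 TPM. Ppp3r2, the testis form of the B subunit, had 0 counts in both libraries, which allows up to 0.0843 and 0.0869 CPM (counts relative to the library total).

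Both catalytic genes share a small variable exon of 30 bases near the 3′ end of the coding sequence, between the calmodulin-binding and autoinhibitory parts. The exons are shown because they are near-copies and vary in both genes. Ppp3ca lies on chromosome 3 (136670124 to 136937727, mm10, forward strand) and Ppp3cb on chromosome 14 (20499364 to 20546573, reverse strand). Capitals mark the 4 of 30 bases at which the exons differ, and both are given 5′ to 3′ on the gene's strand from the GENCODE M21 transcripts.
Ppp3ca exon, chr3:136932011-136932040: cTacTgttgaggctattgaggctgaTGaag
Ppp3cb exon, chr14:20503247-20503276: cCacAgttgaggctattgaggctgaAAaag
In Ppp3ca the exon was held by 52.4 and 55.8% of the TPM of the transcripts that span it and by 56.1 and 58.6% by the second quantifier. Of expected counts, not corrected for length, it was held by 33.1 and 36.2%, so which form led depended on the length correction. The form with the exon, Ppp3ca-201, had 37.1 and 47.8 TPM and the form without it, Ppp3ca-202, 33.7 and 37.8 TPM. Their models end differently, at 2194 and 4758 bases in all, so part of this split rests on the 3′ ends. In Ppp3cb the exon was held by 89.7 and 91.4% of TPM by the first quantifier but 58.8 and 61.6% by the second. The quantifiers differed on Ppp3cb-205, which has the exon and an alternative end of an 85-base exon that leaves 82 bases. It held 70.7 and 68.3% of the gene by the first quantifier and 39.5 and 39.5% by the second. The form without the 30 bases, Ppp3cb-201, held 8.08 and 7.31% by the first and 37.5 and 34.4% by the second, so inclusion in Ppp3cb is not settled beyond being in most transcripts.

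Rcan1 binds and inhibits calcineurin and is itself a known NFAT target, which makes its inner promoter a feedback arm of the pathway. Rcan1 (chromosome 16, 92391953 to 92470867, reverse strand) stood at 22.7 and 21.5 TPM (22.1 ± 0.841), from 1476 and 1210 counts. It has 2 main forms with separate first exons. Rcan1-202 starts at the outer first exon (92465833 to 92466146), and Rcan1-201 at the inner one (92399896 to 92400077), the calcineurin-inducible form in the literature. The 250 bases before each start are shown because the forms differ in promoter; they are from the RefSeq table of mm10, 5′ to 3′ on the gene's strand, and capitals mark GGAAA or TTTCC, the NFAT core motif on either strand.
Outer promoter, chr16:92466170-92466419: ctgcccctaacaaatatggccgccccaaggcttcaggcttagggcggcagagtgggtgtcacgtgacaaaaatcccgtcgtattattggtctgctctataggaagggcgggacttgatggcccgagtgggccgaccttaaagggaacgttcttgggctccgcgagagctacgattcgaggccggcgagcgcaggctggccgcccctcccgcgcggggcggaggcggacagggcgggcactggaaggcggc
Inner promoter, chr16:92400079-92400328: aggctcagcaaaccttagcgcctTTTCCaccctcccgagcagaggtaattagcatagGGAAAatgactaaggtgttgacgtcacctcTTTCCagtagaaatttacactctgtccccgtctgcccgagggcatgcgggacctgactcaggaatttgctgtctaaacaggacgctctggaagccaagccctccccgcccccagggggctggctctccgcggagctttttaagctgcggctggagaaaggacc
The inner window held 3 matches and the outer window 0. Of the 32851 promoters in the table, 55.6% held at least 1 match and 6.39% held 3 or more. A match describes these letters and is not a binding site. Of the members, 6 had promoter entries that were read, 9 in all; Ppp3cb and 1 of the Nfatc2 entries also held 3 matches.

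The 2 Rcan1 forms differed in how they compared between the libraries. The inner form had 880 counts in library 1 and 604 in library 2, and the outer form 596 and 605. After TMM scaling, the log2 ratio of library 1 over library 2 was 0.51 (95% counting interval 0.36 to 0.66) for the inner form and -0.055 (-0.22 to 0.11) for the outer form. The second quantifier gave 1036 and 633 counts for the inner form, a log2 ratio of 0.68 (0.54 to 0.83), and 588 and 744 for the outer form, a log2 ratio of -0.37 (-0.52 to -0.21). The inner form was thus higher in library 1 by both quantifiers, and the outer form was not. Transcripts with the inner first exon held 61.1 and 51.8% of the gene's TPM in libraries 1 and 2, and 64.8 and 48.1% by the second quantifier, where the leading form of library 2 was the outer one. These intervals cover counting error only, and with 1 library on each side no test of the difference exists.

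**Figure D2:**
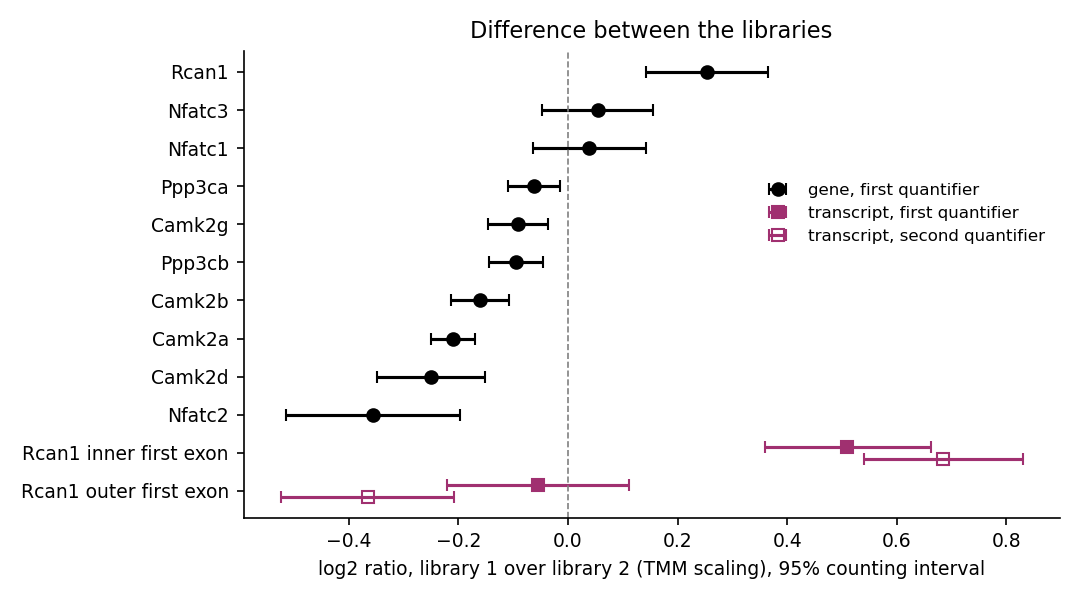
Log2 ratio of library 1 over library 2 after TMM scaling, with 95% counting intervals, for the 10 genes (black) and for both main Rcan1 forms (purple; filled for the first quantifier, open for the second). Rcan1 lies highest among the genes at 0.25, Nfatc2 lowest at -0.36, and the inner form of Rcan1 lies at 0.51 and 0.68.

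The NFAT genes encode the transcription factors that calcineurin activates. Nfatc1 (chromosome 18, 80606205 to 80713071) was the highest at 11.6 and 13.5 TPM (12.5 ± 1.38), Nfatc3 (chromosome 8, 106058840 to 106130537) stood at 9.71 and 10.7 TPM (10.2 ± 0.679), and Nfatc2 (chromosome 2, 168476410 to 168601657) at 3.90 and 5.45 TPM. Of their joint TPM of 25.2 and 29.6, Nfatc1 held 45.8 ± 0.237%, Nfatc3 37.3 ± 1.81% and Nfatc2 16.9 ± 2.05%, and the values of the 3 genes did not overlap. Without length correction Nfatc1 and Nfatc3 stood closer, at 40.9 ± 1.25% and 41.6 ± 1.59% of counts, and changed places. Nfatc4, a calcineurin-dependent relative, stood at 1.17 and 1.36 TPM. Nfat5, which responds to osmotic stress and not to calcineurin, stood at 6.07 and 7.37 TPM.

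Nfatc1 is transcribed from 2 promoters, and in lymphocytes the inducible one makes short forms. The first exon of the upstream start (80712640 to 80713071) held 50.8 and 46.9% of the gene's TPM, and that of the downstream start (80708034 to 80708173) 49.2 and 46.6%. By the second quantifier the shares were 31.9 and 33.0% for the upstream and 56.2 and 52.2% for the downstream start. Nfatc1-207, a 672-base model without a reading frame, stood at 0 and 6.50% by the first and 11.9 and 14.8% by the second. Nfatc1-206, from the upstream start, held 18.7 and 0% by the first and 0.469 and 0.384% by the second. Nfatc1-201, from the downstream start, held 1.21 and 13.7% by the first and 19.8 and 13.9% by the second. Which start led is therefore not settled. Forms that end at the early last exon (80647435 to 80649964), which makes the short protein, held 19.9 and 13.7% of TPM, and 20.3 and 14.3% by the second quantifier. The long end was the main one in both libraries by both quantifiers. In Nfatc3, 1 form dominated: Nfatc3-201 held 83.4 and 80.3%, and 79.9 and 77.2% by the second quantifier. In Nfatc2, transcripts from the main first exon (168590062 to 168590365) held 75.4 and 86.8%, and 76.8 and 88.2% by the second quantifier. Nfatc2 rested on 588 and 735 counts, the fewest of the members.

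The CaMKII genes summed to 278 and 354 TPM, against 142 and 172 TPM for Ppp3ca and Ppp3cb. The CaMKII sum includes 84.4 and 112 TPM of Camk2a models with a later start codon, which do not encode the kinase. It also includes models not annotated as protein-coding, so it is not a level of the kinase alone. Camk2a held 48.2 ± 1.11% of this sum, Camk2g 25.8 ± 0.679%, Camk2b 19.4 ± 0.375% and Camk2d 6.67 ± 0.0603%. The order was the same in both libraries by TPM, and the gaps were larger than the spread. By expected counts, without length correction, Camk2b and Camk2g changed places, at 24.5 ± 0.140% and 23.6 ± 0.941%. Camk2a, the alpha form, is best known as the kinase of neurons, yet it was the most abundant of the 4 genes here while the neuron markers were near 0.

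Most Camk2a transcripts by TPM did not encode the kinase. Camk2a (chromosome 18, 60925618 to 60988152) is known in skeletal muscle for an internal promoter that makes alpha-KAP, a protein without the kinase domain that anchors the holoenzyme to the sarcoplasmic reticulum. In the annotation the models with this later start codon are Camk2a-204, with 7 exons and a coding sequence of 600 bases, and Camk2a-202, with 6 exons and 567 bases. Both begin in an exon at 60963554 to 60963963, which lies inside the gene. Together they held 84.4 and 112 TPM, which was 64.2 and 64.4% of the gene, and 67.9 and 68.4% by the second quantifier. The kinase model Camk2a-203, with 18 exons and a coding sequence of 1434 bases, had 47.1 and 61.5 TPM. Of expected counts, however, the models with the kinase start codon held 71.5 and 71.6%, because Camk2a-203 is 4970 bases long against 979 and 1734 bases for the short models. The excess of the short forms therefore rests on the length correction, and both quantifiers use the same models. Camk2a-204 holds a 33-base variable exon that Camk2a-203 lacks. Transcripts with it made up 47.0 and 48.4% of the TPM of those spanning it, or 43.5 and 45.0% by the second quantifier. Of expected counts the exon was held by 17.0 and 17.6%, so its share also rests on the length correction.

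Counting only models with the kinase start codon changed the order of the 4 genes by TPM. Camk2b then led with 33.5 and 33.3% of the summed TPM, followed by Camk2a with 30.2 and 31.2% and Camk2g with 29.6 and 27.8%, while Camk2d held 6.63 and 7.75%. The second quantifier also placed Camk2b first, at 34.7 and 34.0%. It gave Camk2a 27.9 and 29.1% and Camk2g 29.6 and 28.0%, which overlapped. Models with the kinase start codon made up 95.6 and 97.4% of the TPM of Camk2b, 55.3 and 65.3% of that of Camk2d and 63.3 and 61.4% of that of Camk2g. By expected counts, without a correction for length, Camk2a still led among these models, with 37.8 and 38.7% of the 4 genes' summed counts, ahead of Camk2b with 28.3 and 28.5% and Camk2g with 26.7 and 24.8%. The rest of Camk2d was in models not annotated as protein coding, most of it in Camk2d-217, of 618 bases, by the first quantifier and in Camk2d-218, of 591 bases, by the second. The rest of Camk2g was in such models and in incomplete coding models, the latter at 9.08 and 12.7 TPM. Camk2b had no incomplete coding models. With the kinase start codon Camk2g stood at 46.1 and 54.9 TPM and Camk2b at 52.1 and 65.8 TPM. If the incomplete models were counted, Camk2g would stand above Camk2b in both libraries by both quantifiers. The lead of Camk2b over Camk2g thus rests on leaving them out.

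**Figure D3:**
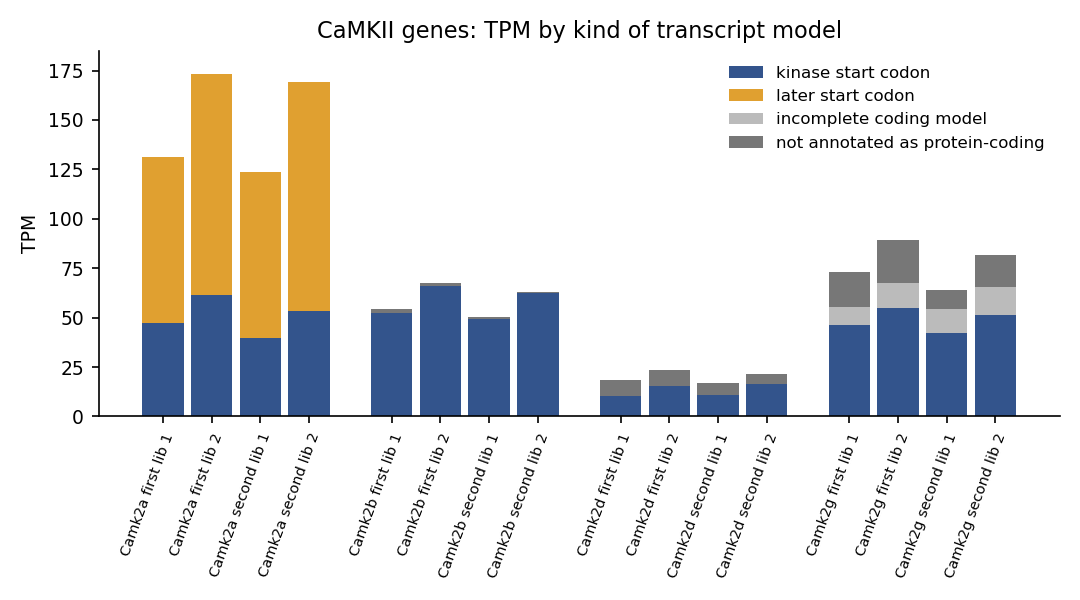
TPM of the 4 CaMKII genes in libraries 1 and 2 by both quantifiers, stacked by kind of transcript model. In Camk2a the later start codon (yellow) holds 64.2 and 64.4% of TPM by the first quantifier, and no other gene has a model of that kind.

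Camk2b (chromosome 11, 5969644 to 6066362, reverse strand) encodes the beta form, which binds actin and, in muscle, makes a larger variant with proline-rich inserts. The main model was Camk2b-209, at 33.2 and 45.1 TPM, or 61.0 and 66.8% of the gene. Camk2b-202, at 16.6 and 19.8 TPM, held 30.5 and 29.4%, and 31.5 and 29.5% by the second quantifier. It carries further exons in the linker and has a coding sequence of 1998 bases against 1626. A pair of them, of 114 and 129 bases, is shown because such exons set the large muscle form apart. Their proline codons, read in the frame of Camk2b-202, are in capitals: 9 of 37 and 10 of 42 full codons.
Exon of 114 bases, chr11:5978399-5978512: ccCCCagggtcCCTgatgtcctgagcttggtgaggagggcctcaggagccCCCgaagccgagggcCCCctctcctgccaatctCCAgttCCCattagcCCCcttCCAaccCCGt
Exon of 129 bases, chr11:5977812-5977940: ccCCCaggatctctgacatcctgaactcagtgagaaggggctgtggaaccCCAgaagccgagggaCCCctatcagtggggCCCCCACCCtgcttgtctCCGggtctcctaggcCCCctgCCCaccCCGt
The exon of 114 bases was held by 30.7 and 29.5% of spanning TPM and that of 129 bases by 33.4 and 29.5%. The second quantifier gave 32.0 and 29.6%, and 34.0 and 31.0%. Of expected counts they were held by 19.8 and 18.7%, and 21.3 and 18.7%. Camk2b-202 is 2223 bases long against 4023 for Camk2b-209, so its TPM share and those of its exons rest partly on the length correction. Camk2b-202 also holds a second exon of 129 bases (5976765 to 5976893), not shown here. It was held by 34.7 and 29.5% of spanning TPM, and by 34.1 and 31.0% by the second quantifier. Of expected counts it was held by 23.0 and 18.7%. A 75-base exon was included in 95.8 and 98.7% of spanning TPM and a 45-base exon in 95.9 and 100%.

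Camk2g (chromosome 14, 20734875 to 20794088, reverse strand) encodes the gamma form. Camk2g-202 held 34.9 and 37.0% of it, Camk2g-203 19.2 and 19.4% and Camk2g-215, a 535-base model without a reading frame, 18.5 and 19.3%. Camk2g-201, a model of 21 exons that holds a 33-base exon, held 9.18 and 4.93% by the first and 13.2 and 12.0% by the second quantifier. Camk2d (chromosome 3, 126596302 to 126846326, forward strand) encodes the delta form, which is the main one in heart. It stood at 18.6 and 23.4 TPM (SD 3.39, n = 2), and Camk2d-206 held 32.1 and 31.8% of it, or 43.5 and 43.8% by the second quantifier.

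The 33-base exons of the delta and gamma genes encode a basic stretch that is known as a nuclear localization signal in the delta B form. They are shown because the genes share this stretch and the quantifiers treated it differently. Lysine and arginine codons, 3 of 11 in each, are in capitals.
Camk2d exon, chr3:126802937-126802969: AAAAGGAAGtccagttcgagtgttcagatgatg
Camk2g exon, chr14:20747819-20747851: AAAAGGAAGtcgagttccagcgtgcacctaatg
In Camk2g it was included in 19.1 and 14.7% of spanning TPM, and in 24.0 and 21.4% by the second quantifier, so most Camk2g transcripts lacked it. In Camk2d it was at 0 in both libraries by the first quantifier and at 29.8 and 18.5% by the second. The difference lay mostly in a pair of short models without a reading frame. The first gave Camk2d-217, of 618 bases, 34.9 and 28.7% of the gene and Camk2d-218, of 591 bases, 0; the second gave Camk2d-217 0 and Camk2d-218 28.7 and 16.6%. Only Camk2d-218 of these holds the exon, so its inclusion in Camk2d is not settled by these tables.

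Other variable exons were found by both quantifiers. A 69-base exon of Camk2g was included in 65.7 and 65.0% of spanning TPM, and in 63.5 and 65.2% by the second quantifier. A 63-base exon of Camk2g was included in 14.1 and 18.3%, and in 16.4 and 20.6% by the second. All models that hold it, Camk2g-209, Camk2g-204 and Camk2g-212, are short and incomplete. Of expected counts it was held by only 2.98 and 4.03%, so its share rests on the length correction. In Camk2d a 42-base exon was included in 50.7 and 60.1%, and in 62.1 and 74.1% by the second. Of expected counts it was held by 75.3 and 78.6%. The short models Camk2d-217 and Camk2d-218 span this exon and lack it, so the TPM shares and their difference between libraries rest partly on them. Among protein-coding models, Camk2d-226, the main one without it, held 10.6 and 9.93% of TPM by the first quantifier. A 60-base exon of the Camk2d linker was at 86.3 and 89.8% by the first and 61.7 and 74.2% by the second. Camk2d-217 holds this exon and Camk2d-218 lacks it, so the gap between quantifiers rests partly on the unsettled split between these models. The coding models with TPM that hold it, Camk2d-206, Camk2d-228 and Camk2d-221, are those that hold the 42-base exon. Within the kinase domain, Camk2d has 2 alternative exons of 73 bases that replace each other. They are shown because models with each held TPM in both libraries, and capitals mark the 23 of 73 bases at which they differ.
Upstream exon, chr3:126770785-126770857: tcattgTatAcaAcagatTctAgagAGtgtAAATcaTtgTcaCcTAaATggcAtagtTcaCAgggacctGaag
Downstream exon, chr3:126771774-126771846: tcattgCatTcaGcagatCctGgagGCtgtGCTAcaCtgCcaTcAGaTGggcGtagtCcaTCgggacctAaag
The upstream exon held 89.2 and 78.6% of spanning TPM and the downstream exon 10.0 and 20.5%. By the second quantifier they held 76.1 and 68.4%, and 23.1 and 30.5%. The upstream exon led in each library by both quantifiers, and the downstream exon had a larger share in library 2 by both. Of expected counts, however, the downstream exon held only 5.24 and 10.8%. Its TPM lay in a single model, Camk2d-221, of 2217 bases, with 74 and 179 counts by the first quantifier. The size of its share thus rests partly on the length correction and on few reads.

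**Figure D4:**
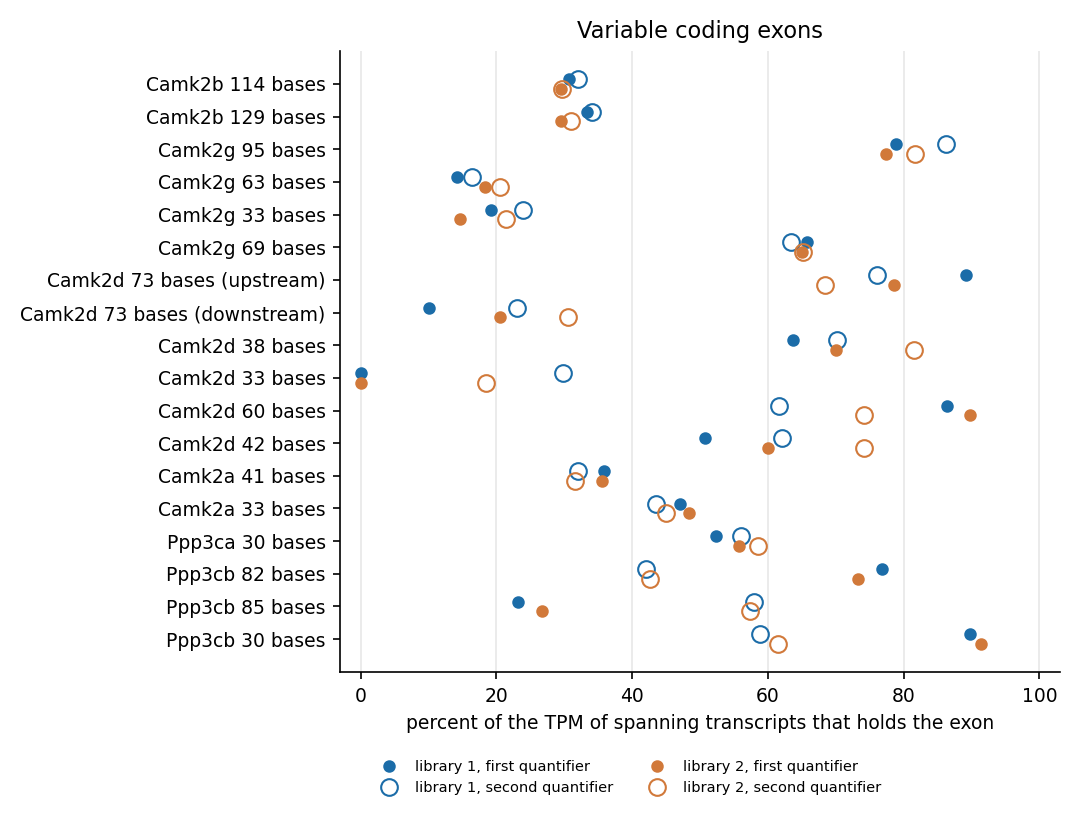
Percent of the TPM of spanning transcripts that holds each variable exon, for 18 exons of the calcineurin and CaMKII genes with a mean between 10 and 90% by either quantifier, in libraries 1 and 2 (filled, first quantifier; open, second quantifier). Camk2b and Camk2g points lie together, while the Camk2d 33-base exon runs between 0 and 29.8% and the Ppp3cb 30-base exon between 58.8 and 91.4%. A second 129-base exon of Camk2b, with means of 32.1 and 32.6% by the quantifiers, is not drawn.

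Between the libraries the members differed little. Ratios were taken as library 1 over library 2 on expected counts after TMM scaling. No member reached an absolute log2 ratio of 1, against 0.509% of the 6685 genes with a mean of at least 5 TPM and at least 100 summed counts; Nfatc2 lies below that TPM minimum. Rcan1 had the highest ratio, at 0.25 (95% counting interval 0.14 to 0.36), and 12.9% of the 6685 genes had one at least as large in either direction. Nfatc2 had the lowest, at -0.36 (-0.51 to -0.20). Camk2d stood at -0.25 (-0.35 to -0.15), Camk2a at -0.21 (-0.25 to -0.17) and Camk2b at -0.16 (-0.21 to -0.11). Ppp3cb, Camk2g and Ppp3ca lay between -0.095 and -0.062, and the intervals of Nfatc3 and Nfatc1 included 0.

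In all, 3 members were higher in library 1 and 7 in library 2. Of the 6685 genes, 3291 were higher in library 1 and 3394 in library 2. The median ratio was -0.093 for the members and -0.0023 over the 6685 genes. The median absolute ratio was 0.13 for the members and 0.093 for the 6685 genes. The counting interval excluded 0 for 8 of 10 members, against 41.1% of the 5152 genes with at least 1000 summed counts, a share that grows with counts. With spike-in scaling Ppp3ca stood at 0.0015, so its direction depends on the scaling. Nfatc1 was at -0.0092 with TMM scaling of the second quantifier's counts, and both Nfatc1 and Nfatc3 were lower in library 1 on deposited TPM. Over the 6685 genes the median ratio of deposited TPM was -0.17, beside a 7SL RNA share of 35.1 and 26.8% of TPM. Every member but Rcan1 had the lower TPM in library 1, and relative to that shift 8 members lay below it, with Rcan1 and Nfatc3 above.

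The genes that surround the members in the pathway were mostly present. Of the calmodulins, the calcium sensors of both enzymes, Calm3 stood at 144 and 176 TPM and Calm2 at 60.6 and 85.0 TPM. Both were higher in library 2, at log2 ratios of -0.16 and -0.31. By TMM the 4 CaMKII genes were also higher there, as were 3394 of the 6685 genes. Of 10 inhibitors and anchors of calcineurin, 8 reached 1 TPM in both libraries. Myoz1, which tethers calcineurin to the Z-disc, led by far at 1287 and 1342 TPM, followed by Myoz2 at 112 and 111 TPM and Ppia, the cyclophilin through which cyclosporin acts, at 86.0 and 92.7 TPM. Akap5, an anchoring protein of neurons, stood at 0.15 and 0.19 TPM.

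Kinases that return NFAT to the cytoplasm were all 8 above 1 TPM, with 4 higher in each library. Csnk1a1 stood at 74.0 and 89.9 TPM, Dyrk1a at 35.6 and 41.4 TPM and Gsk3a at 34.9 and 40.4 TPM. Of 7 other calmodulin-dependent kinases only Camk1 reached 1 TPM in both libraries, at 14.0 and 18.9 TPM, and Camkk2 stood at 1.27 and 0.97 TPM. Camk1d, Camkv, Camkk1, Camk1g and Camk4 were below 1 TPM in both, with Camk4 at 0.04 TPM in each. Inhibitors and phosphatases of CaMKII were low. Ppm1f, which dephosphorylates CaMKII, stood at 3.97 and 4.85 TPM and the inhibitor Camk2n1 at 2.29 and 1.89 TPM, while Camk2n2 and Ppm1e were below 1 TPM in both libraries. The 7 listed genes summed to 16.1 and 20.6 TPM, against 278 and 354 TPM for the 4 CaMKII genes. The CaMKII sum includes Camk2a models that do not encode the kinase. Calmodulin-dependent kinases outside this list were not summed, so the list does not stand for all of them.

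**Figure D5:**
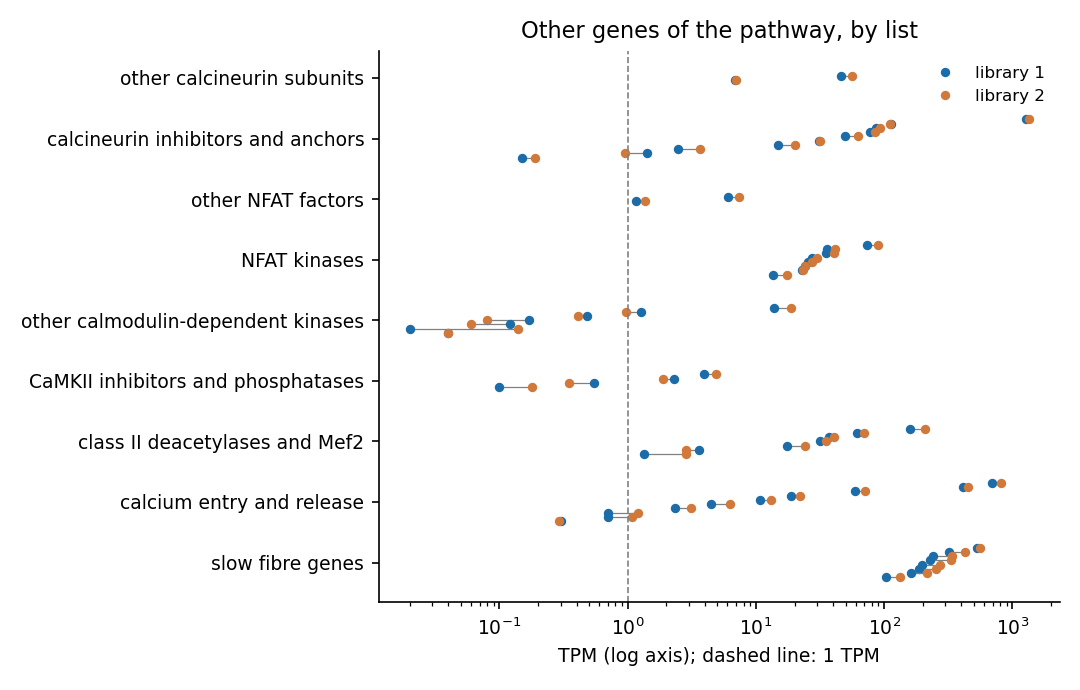
TPM (log axis) of the other genes of the pathway by list in libraries 1 and 2, a line joining the values of each gene; the dashed line marks 1 TPM and Ppp3r2, at 0, is not drawn. NFAT kinases all lie right of the line, while 5 of 7 other calmodulin-dependent kinases lie left of it in both libraries.

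Targets and calcium sources were high. Among class II deacetylases and Mef2 factors, all 7 reached 1 TPM, led by Mef2c at 159 and 209 TPM, Mef2d at 61.8 and 69.3 TPM and Mef2a at 37.4 and 40.7 TPM. Of 10 genes of calcium entry and release, 7 reached 1 TPM in both libraries. Ryr1, the release channel, stood at 689 and 815 TPM, Cacna1s, the voltage sensor, at 410 and 450 TPM and Stim1, the sensor of store calcium, at 59.5 and 71.1 TPM. Trpc1, a cation channel, stood at 0.30 and 0.29 TPM.

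Slow fibre genes, the known targets of calcineurin and NFAT, all reached 1 TPM. The list of 8 includes Myh2, which belongs to type 2A and not to slow fibres. Myh2 stood at 526 and 560 TPM, Myl2 at 321 and 427 TPM and Myl3 at 240 and 341 TPM. Myh7, the slow myosin, stood at 230 and 330 TPM. By TMM ratio 7 of the 8 were higher in library 2, with a median of -0.28, and Myh2, of type 2A fibres, was at 0.085. Fast fibre genes had a median of -0.072, with 6 of 8 higher in library 2, and the highest were Tnnt3 at 14057 and 16206 TPM, Atp2a1 at 11592 and 12986 TPM and Myh4 at 10634 and 12336 TPM. By TMM, library 2 was thus higher for 7 of the 8 listed slow genes, 6 of the 8 fast genes and the CaMKII genes. It was also higher for Ppp3ca, Ppp3cb, Nfatc2 and 3394 of the 6685 genes. Rcan1 was lower in library 2, as were Nfatc1 and Nfatc3, whose intervals included 0. With 2 libraries this is a single contrast, and whether fibre make-up bears on the members was not tested.

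Genes that overlap the members in the annotation held few reads. None exceeded 39 counts in either library, so they could add little to members with at least 588 counts. CAST alleles were read through the mm10 sequence, and how this bears on any member was not tested.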

How the data were processed

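Total RNA of 2 gastrocnemius libraries was analysed from deposited tables. They rest on mm10 and GENCODE M21, per the read-me that came with them. The software behind them is not given in the sources used. Per the file headers, gene and transcript tables of the first quantifier hold expected counts and TPM, made from alignments to transcripts per the read-me. Transcript tables of the second hold estimated counts and TPM, made from the reads directly. The authors' TPM spans every entry, spike-ins and 7SL RNA included.

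Members and lists were chosen with earlier results of these data known. All 10 members, the 3 highest genes of each list, genes below 1 TPM in both libraries and transcripts with a mean share of at least 10% by either quantifier were named. Ratios used rounded expected counts with TMM in edgeR 4.0.16 (genes with at least 1 CPM in both libraries) and exact binomial (Clopper-Pearson) 95% intervals, which, like the floor of 3 counts, cover counting error only. Some items are not reported here. Scripts were tested on simulated data. Size factors came from DESeq2 1.42.0 (R 4.3.3), and other values from Python 3.11.15 with pandas 2.3.3 and scipy 1.17.1. Exon inclusion is the TPM of annotated transcripts that hold an exon over that of those spanning it, and no junction reads were seen. With 2 libraries an exact two-sided sign-flip test cannot go below p = 0.5, so no test was made. The libraries were not copies, with a chi-square per degree of freedom of 18.6 over 15938 genes and a median single-gene chi-square of 1.31. Spike-ins held 0.479% and 0.504% of counts. Alternatives were other scalings, quantifiers, minimums and leaving out each replicate.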

Additional observations from a re-analysis of the deposited data

How the results depend on the processing

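No paired analysis was possible because the 2 libraries form 1 group. The number of members with at least 1 TPM stayed at 10 with a minimum of 0.5 TPM, by the second quantifier and in each library alone, and was 9 with a minimum of 5 TPM. The median log2 ratio of the members was -0.29 when taken from deposited TPM and -0.33 from that of the second quantifier, where the medians over the 6685 genes were -0.17 and -0.21. It lay between -0.100 and -0.029 under DESeq2 size factors, spike-in scaling, no low-count filter and TMM on the second quantifier's counts. The last was chosen after seeing the data. Ppp3ca turned to 0.0015 with spike-in scaling. The 34 genes apart between libraries became 79 on the second quantifier's TPM, 68 with TMM on its counts and 155 with minimums of 1 TPM and 20 summed counts, where fewer reads stand behind each ratio; the cause of the first 2 was not tested. Of 31 named transcript shares, 21 moved by more than the spread between libraries with the second quantifier and 10 of 26 when only protein-coding transcripts were counted. All 10 levels moved when TPM was rescaled over nuclear protein-coding genes, and by the second quantifier 2 did. Leaving out a library leaves a single value, with no spread. Shares of short models and of Nfatc2, which rested on 588 and 735 counts, are the least certain.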
